A study of Sorghum bicolor with 4 samples.

Results

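The invertase genes of sweet sorghum stems are described here by their transcript levels at 2 stages of stem development. The 7 genes, of 34458 loci in the deposited table, were taken by identifier: the vacuolar invertase genes Sobic.004G004800 and Sobic.006G160700, and the cell wall invertase genes Sobic.001G099700, Sobic.003G440900, Sobic.004G166700, Sobic.006G255400 and Sobic.006G255600. All 7 were found, each in a row of its own that carries no other identifier. Their names come from the known assignment of these identifiers, since the table pairs identifiers with no gene names.

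Total RNA was sequenced from the middle internode of open-field plants of the line ICSA38. The later group was harvested at physiological maturity and the earlier group at the milky stage of grain filling, with 2 libraries each and 4 in all. No treatment or genotype sets the groups apart in the labels, and the labels do not say whether the libraries of a stage came from separate plants. The table holds 1 value per locus and stage, in FPKM (fragments scaled to the length of the locus and to the number of mapped fragments), read here as the authors' combined value for the stage. There is therefore no standard deviation and no test for any value below, and no difference can be set against the variation among libraries.

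Invertases hydrolyse sucrose irreversibly to glucose and fructose. Vacuolar invertases are soluble acid enzymes that act on sucrose stored in the vacuole, and low activity of this kind is a known feature of sorghum stems that accumulate sucrose. Cell wall invertases are bound to the wall and cleave sucrose that has left the phloem into the space outside the cells, from which the hexoses are taken up. Sucrose synthases cleave sucrose inside the cell by a reversible reaction that also yields UDP-glucose, a substrate of cellulose synthesis.

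At physiological maturity, cell wall invertase transcripts were more abundant than at the milk stage, while vacuolar invertase transcripts were scarce at both stages. The summed level of the 5 cell wall genes was 30.8 FPKM at maturity and 8.04 FPKM at the milk stage, a ratio of 3.83. The summed level of the 2 vacuolar genes was 1.28 FPKM at maturity and 2.00 FPKM at the milk stage, a ratio of 0.639. FPKM is per length, so levels of different genes can be added and compared. Because the tissue is bulk, fewer cells that express a gene and less of its RNA per cell cannot be told apart.

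**Figure D1:**
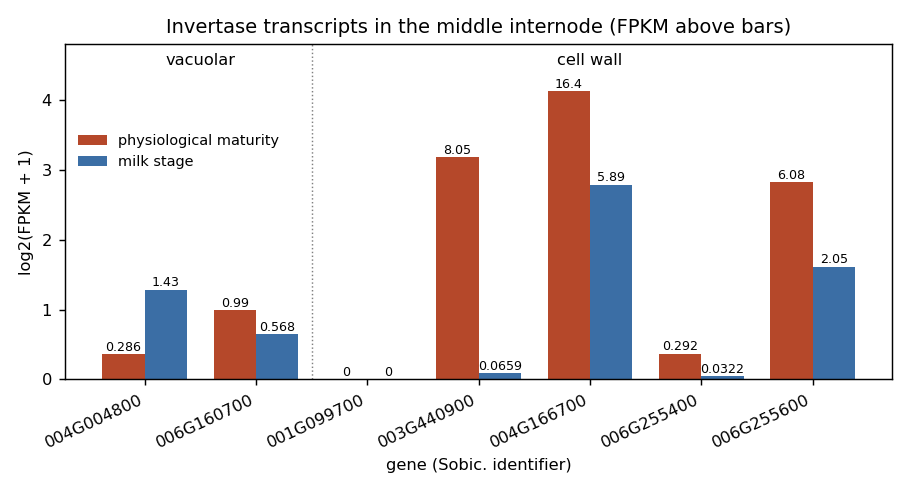
Deposited level of each invertase gene at physiological maturity (left bar) and the milk stage (right bar) on a log2(FPKM + 1) axis, with the FPKM printed above each bar and no error bar because there is 1 value per stage. Sobic.004G166700 has the tallest bar at both stages, Sobic.003G440900 stands at 8.05 FPKM at maturity and 0.0659 FPKM at the milk stage, and Sobic.001G099700 has no bar.

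Stage differences are given as log2(FPKM + 1) at maturity minus the same at the milk stage, which understates differences of low loci. Loci were compared where at least 1 stage reached 1 FPKM, and a difference of 1 or more on this scale counts as at least 2-fold. By that rule, higher levels at maturity were counted for 11.5% of the 18749 loci compared and lower levels for 10.7%. Of the 7 invertase genes, 4 reached the minimum and 3 did not. At least 2-fold higher levels at maturity were seen for 3 genes, all encoding cell wall enzymes, and at least 2-fold lower levels for 0 genes. Among the 3, Sobic.003G440900 met the minimum through its maturity value alone. Without any minimum, 4 of the 5 cell wall genes had the higher value at maturity and the fifth was listed at 0. Over the 27668 loci above 0 at either stage, 50.8% had the higher value at maturity.

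The median log2 difference was 1.21 over the 5 cell wall genes and -0.29 over the 2 vacuolar genes, against 0.04 over all loci compared. The interquartile range of all loci compared ran between -0.48 and 0.57. With so few genes and with members below the minimum included, these medians only describe the lists.

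Among the vacuolar invertase genes, Sobic.004G004800 was at 0.286 FPKM at maturity and 1.43 FPKM at the milk stage. It was the only invertase gene with a lower value at maturity, with a log2 difference of -0.92 that lies just inside the 2-fold limit. Without the pseudocount, its log2 ratio was -2.32. It met the minimum through its milk-stage value alone, and a locus that does so has the lower value at maturity by construction.

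Sobic.006G160700, the other vacuolar gene, was at 0.990 FPKM at maturity and 0.568 FPKM at the milk stage. It thus stayed just below the minimum of 1 FPKM, and its log2 difference of 0.34 lay within the interquartile range of the loci compared. The 2 vacuolar genes exchanged order between the stages. Sobic.006G160700 held 77.6% of the vacuolar sum at maturity and 28.4% at the milk stage, and Sobic.004G004800 held 22.4% at maturity and 71.6% at the milk stage. All 4 values are under 1.5 FPKM, and the number of fragments behind them is unknown.

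**Figure D2:**
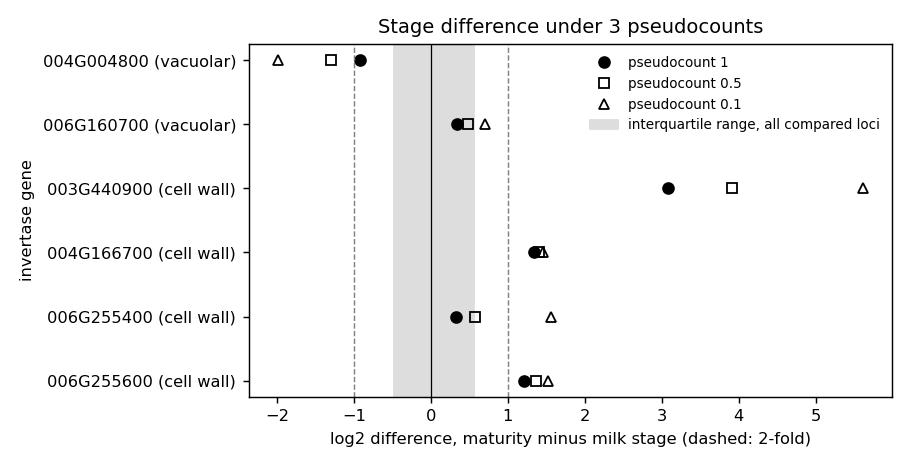
Log2 difference (maturity minus milk stage) of the 6 invertase genes above 0, with pseudocounts of 1 (filled circles), 0.5 (squares) and 0.1 (triangles); grey marks the interquartile range of all loci compared and dashed lines mark 2-fold. Sobic.004G166700 stays between 1.34 and 1.46 and Sobic.006G255600 between 1.21 and 1.52, while Sobic.003G440900 runs between 3.09 and 5.62, Sobic.006G255400 between 0.32 and 1.57 and Sobic.004G004800 between -0.92 and -1.99.

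Among the cell wall invertase genes, Sobic.004G166700 had the highest level at both stages, with 16.4 FPKM at maturity and 5.89 FPKM at the milk stage. Its log2 difference was 1.34, and its plain ratio of maturity to milk stage 2.78. A larger log2 difference was seen for 1193 of the 18749 loci compared. Of all loci in the table, 78.4% had the same or a lower level at maturity and 66.0% at the milk stage. These shares include many scarce loci, since 45.6% of the table was under 1 FPKM at both stages. Among loci at 1 FPKM or more in the stage, the median was 12.3 FPKM at maturity and 12.0 FPKM at the milk stage.

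Sobic.006G255600 was at 6.08 FPKM at maturity and 2.05 FPKM at the milk stage, a log2 difference of 1.21 and a plain ratio of 2.96. It was thus the third of the 7 genes by level at maturity and the second at the milk stage. The plain ratios of Sobic.006G255600 and Sobic.004G166700 were close, at 2.96 and 2.78. Both genes passed the minimum at each stage, so neither was compared merely because it was high at 1 of them.

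Sobic.003G440900 had the widest stage difference of the 7 genes. Its level was 8.05 FPKM at maturity and 0.0659 FPKM at the milk stage, a log2 difference of 3.09. A larger log2 difference was found for 79 of the 18749 loci compared. The plain ratio was 122, and the number of fragments behind its milk-stage value is unknown. It met the minimum through its maturity value alone, so its milk-stage value was under 1 FPKM. Given 8.05 FPKM at maturity, its higher value and its call of at least 2-fold both follow from that. The call is therefore no separate result. In the whole table, 20 loci stood at 5 FPKM or more at maturity and under 0.1 FPKM at the milk stage, which is 0.156% of the 12783 loci at 5 FPKM or more at maturity. The opposite pattern, under 0.1 FPKM at maturity with 5 FPKM or more at the milk stage, was shown by 35 loci. These limits were set after the values of Sobic.003G440900 were known.

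Sobic.006G255400 was at 0.292 FPKM at maturity and 0.0322 FPKM at the milk stage. Both values are under the minimum, and the log2 difference was 0.32. Without the pseudocount the ratio was 9.06, which shows how far the scale decides the size of a difference at such levels. Sobic.001G099700 was listed at 0 at both stages, as were 6790 loci or 19.7% of the table. A value of 0 in a table without counts sets no upper limit on its level.

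**Figure D3:**
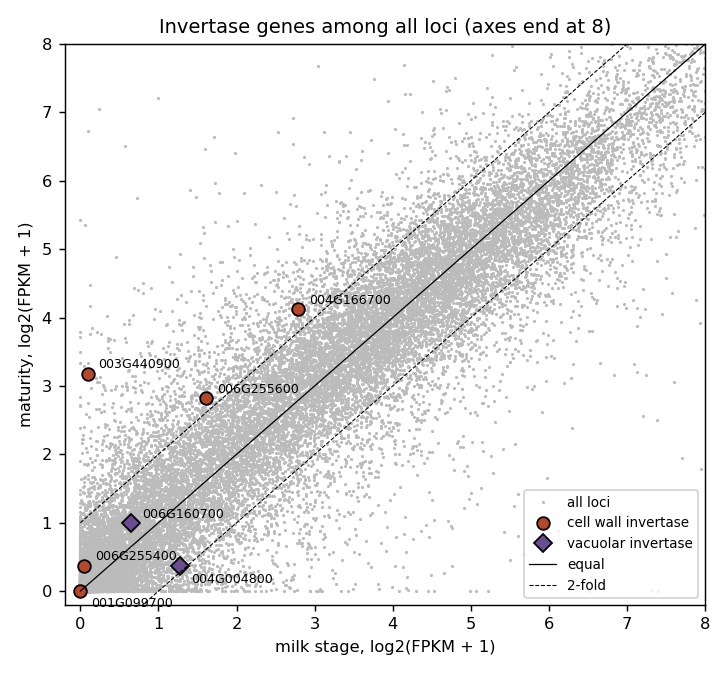
Every locus of the table by level at maturity (vertical axis) and at the milk stage (horizontal axis), both as log2(FPKM + 1), with cell wall invertase genes as circles and vacuolar ones as diamonds; the axes end at 8. Cell wall genes Sobic.003G440900, Sobic.004G166700 and Sobic.006G255600 lie above the upper 2-fold line, and the vacuolar gene Sobic.004G004800 lies next to the lower one.

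Of the 7 invertase genes, the one whose share of their summed transcripts differed most between the stages was Sobic.003G440900. That gene held 25.1% of the summed FPKM of the 7 genes at maturity and 0.656% at the milk stage. Sobic.004G166700 held the largest share at both stages, 51.1% at maturity and 58.7% at the milk stage. The share of Sobic.006G255600 was 19.0% at maturity and 20.5% at the milk stage. The 2 vacuolar genes together held 3.98% at maturity and 19.9% at the milk stage. Of these, Sobic.004G004800 held 0.893% at maturity and 14.3% at the milk stage. The summed cell wall level was 24.1 times the summed vacuolar level at maturity and 4.02 times at the milk stage. The vacuolar sum behind these values was low, at 1.28 FPKM at maturity and 2.00 FPKM at the milk stage. The shares also follow the cell wall sum, whose ratio of maturity to milk stage was 3.83, against 0.639 for the vacuolar sum.

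The summed cell wall level was higher at maturity also without the gene of widest difference and without the gene of highest level. No cell wall gene had a lower value at maturity, so this direction was fixed beforehand and only the size of the ratio could change. Without Sobic.003G440900 the sum was 22.8 FPKM at maturity and 7.98 FPKM at the milk stage, a ratio of 2.85. Without Sobic.004G166700 it was 14.4 FPKM at maturity and 2.15 FPKM at the milk stage, a ratio of 6.70. Of that maturity sum, 8.05 FPKM came from Sobic.003G440900. The vacuolar sum did depend on 1 gene, because without Sobic.004G004800 only Sobic.006G160700 remained, whose value was higher at maturity.

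**Figure D4:**
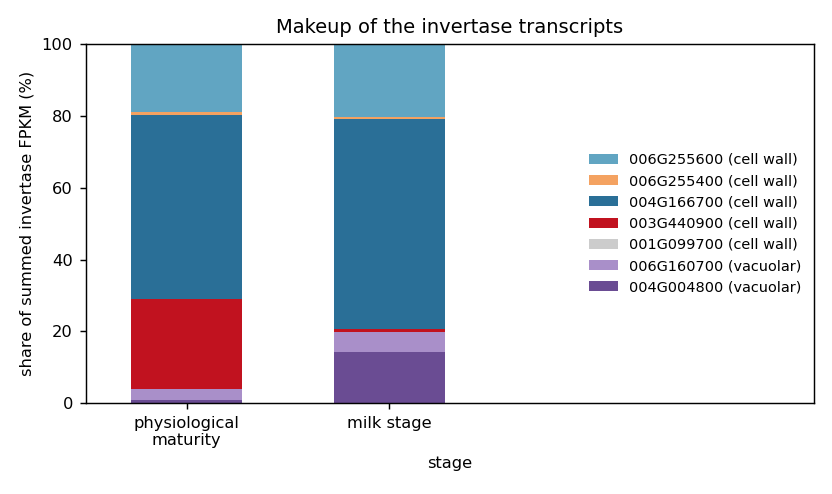
Share of each gene in the summed FPKM of the 7 invertase genes, in percent, at physiological maturity (left) and the milk stage (right). Sobic.004G166700 fills more than any other gene in both columns, Sobic.003G440900 takes 25.1% at maturity and 0.656% at the milk stage, and the vacuolar genes at the foot take 3.98% at maturity and 19.9% at the milk stage.

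All loci of the table summed to 666768 FPKM at maturity and 800834 FPKM at the milk stage. With each stage divided by its own sum, the ratio of maturity to milk stage was 4.60 for the 5 cell wall genes and 0.767 for the 2 vacuolar genes. The same scaling moved the median log2 difference of all loci compared to 0.28, against 0.04 as deposited.

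The names of the sucrose synthase, transporter and leaf marker genes below were assigned to identifiers from general knowledge, and no file used here pairs them. Under that assignment, sucrose synthase transcripts were far more abundant than those of the 7 invertase genes. The 5 sucrose synthase genes summed to 1023 FPKM at maturity and 723 FPKM at the milk stage. That was 31.9 times the sum of the 7 invertase genes at maturity and 72.0 times at the milk stage. Neutral or alkaline invertase genes are not among the 7, and a planned list of them could not be formed. Nearly all of the sucrose synthase sum came from 3 genes. Sobic.010G072300 was at 720 FPKM at maturity and 543 FPKM at the milk stage, and Sobic.001G344500 at 209 FPKM at maturity and 77.2 FPKM at the milk stage. Sobic.001G378300 was at 94.5 FPKM at maturity and 99.2 FPKM at the milk stage.

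The scarce members of that family were below 2 FPKM at both stages. Sobic.004G357600 was at 0.235 FPKM at maturity and 1.97 FPKM at the milk stage, and Sobic.010G276700 at 0.127 FPKM at maturity and 1.03 FPKM at the milk stage. Both met the minimum through the milk stage alone, so their lower values at maturity follow from the filter, as for Sobic.004G004800. Of the 5 sucrose synthase genes, 1 was at least 2-fold higher at maturity (Sobic.001G344500) and 1 at least 2-fold lower (Sobic.004G357600), where the shares over all loci compared are 11.5% and 10.7%. Their median log2 difference was -0.07.

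Genes that carry sucrose and hexoses across membranes gave the following background. Of the 6 sucrose transporter (SUT) genes, which encode sucrose-proton symporters, 3 were listed at 0 at both stages and 3 reached the minimum. Of the 3 that reached it, 0 were at least 2-fold apart between the stages. Over all loci compared, 11.5% were higher and 10.7% lower by that rule, so nothing is read from this count. SUT1 (Sobic.001G488700) was at 139 FPKM at maturity and 88.3 FPKM at the milk stage, Sobic.004G353600 at 31.5 FPKM at maturity and 59.9 FPKM at the milk stage, and Sobic.008G193300 at 76.9 FPKM at maturity and 64.0 FPKM at the milk stage. TST2 (Sobic.004G099300), a sugar carrier of the vacuolar membrane, had a log2 difference of 0.35, and SWEET8A (Sobic.008G094000), of the SWEET family of sugar carriers, 1.17. Each of the invertase genes lay below each of the SUT genes that were above 0, at both stages.

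As a check on the tissue, PEPC (Sobic.010G160700), the enzyme that fixes carbon first in C4 leaves, was at 0.142 FPKM at maturity and 0.0632 FPKM at the milk stage. PPDK (Sobic.009G132900), another enzyme of the C4 cycle, was at 31.9 FPKM at maturity and 11.1 FPKM at the milk stage, a log2 difference of 1.44. The row of NADP-ME (Sobic.003G036200) carries 2 identifiers, with 82.9 FPKM at maturity and 156 FPKM at the milk stage, so its value cannot be assigned to that gene. The 3 rows summed to 115 FPKM at maturity and 167 FPKM at the milk stage, and without the NADP-ME row to 32.0 FPKM at maturity and 11.2 FPKM at the milk stage. None was at 0, PEPC stayed under the minimum, and of the 2 rows compared PPDK was at least 2-fold higher at maturity, as were 11.5% of all loci compared. Their part in the invertase result was not tested. Markers of stem or grain tissue were not examined here.

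The loci numbered next to the invertase genes were compared in the same way. Of 25 other loci within 2 steps of a member in identifier order, 15 reached the minimum. Of these 15, 1 was at least 2-fold higher at maturity, 2 were at least 2-fold lower and 12 were neither, against 11.5% higher and 10.7% lower over all loci compared. Nothing is read from counts this small. Sobic.003G440700 was at 62.8 FPKM at maturity and 58.3 FPKM at the milk stage, and Sobic.003G440800 had a log2 difference of 0.03 at a level of 53.1 FPKM at maturity, both beside Sobic.003G440900 and close to equal between the stages. On its other side, Sobic.003G441000 was at 0.131 FPKM at maturity and listed at 0 at the milk stage.

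Around Sobic.004G166700, the locus before it, Sobic.004G166600, was at 2.83 FPKM at maturity and 0.988 FPKM at the milk stage, with a log2 difference of 0.95 and a plain ratio of 2.86, near the 2.78 of Sobic.004G166700. The locus after it, Sobic.004G166800, was at 2.47 FPKM at maturity and 2.35 FPKM at the milk stage. The locus just after the vacuolar gene Sobic.004G004800, Sobic.004G004900, differed in the opposite direction from it, with 11.7 FPKM at maturity and 4.64 FPKM at the milk stage. So did Sobic.004G004600, with 19.1 FPKM at maturity and 9.61 FPKM at the milk stage. Sobic.004G005000 differed in the same direction as Sobic.004G004800, with 3.84 FPKM at maturity and 6.44 FPKM at the milk stage. Sobic.004G004700 was listed at 0 at both stages.

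On chromosome 6 by identifier, Sobic.006G255400 and Sobic.006G255600 are separated by Sobic.006G255500, which was at 3.17 FPKM at maturity and 1.43 FPKM at the milk stage, a log2 difference of 0.78 and a plain ratio of 2.22. The locus before them, Sobic.006G255300, was listed at 0 at maturity and was at 0.531 FPKM at the milk stage. Beyond Sobic.006G255600, Sobic.006G255700 was at 0.0707 FPKM at maturity and 0.162 FPKM at the milk stage. Sobic.006G255800 was at 83.8 FPKM at maturity and 178 FPKM at the milk stage, a log2 difference of -1.08. The 3 adjacent identifiers Sobic.006G255400 to Sobic.006G255600 thus had the higher value at maturity, and the loci listed on either side the lower. Of the 3, only Sobic.006G255600 was at least 2-fold higher. Sobic.006G255300, Sobic.006G255400 and Sobic.006G255700 were below the minimum at both stages, so no bounded run is read from these values. Reads shared between similar invertase genes could be split between these rows, and this was not tested.

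**Figure D5:**
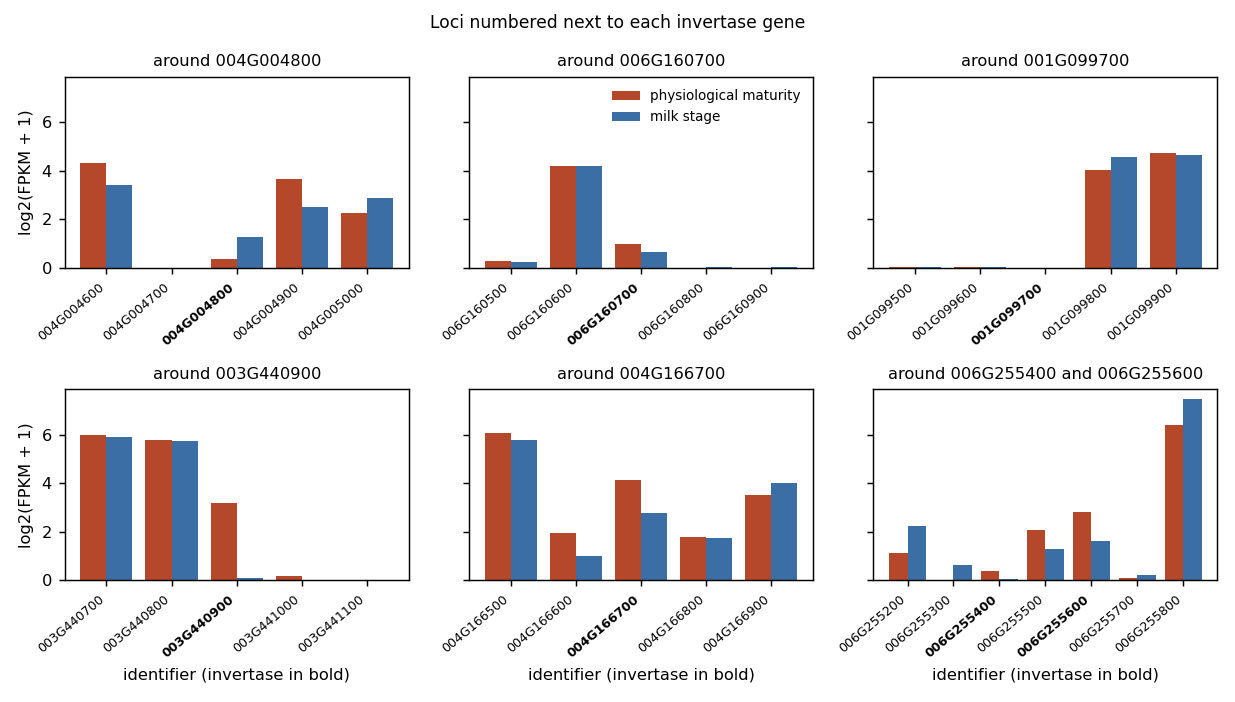
Levels, as log2(FPKM + 1), of loci in identifier order around the invertase genes (bold) at physiological maturity (left bar) and the milk stage (right bar). The loci beside Sobic.003G440900 are either near equal between the stages or near 0, and on chromosome 6 the 3 identifiers Sobic.006G255400 to Sobic.006G255600 have taller bars at maturity while those around them have taller bars at the milk stage.

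The table names loci in different ways. Sobic.001G099700 and Sobic.006G255400 are among 10645 loci under the name of the annotated gene, of which 99.5% were under 1 FPKM at both stages. The other 5 invertase genes are among 23813 loci with an assembly-style name (prefix MSTRG), of which 21.5% were under 1 FPKM at both stages.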

How the data were processed

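The authors deposited 1 table of FPKM values with 2 value columns whose headings are the sample titles without replicate numbers. The submitters' processing notes name HISAT2 2.0.5 and Bowtie2 2.2.9, besides cutadapt 1.8.1 and Cuffdiff, which has no version there. Per the labels' protocols, RNA came from a modified trizol method and a stranded total RNA kit. The genome build, the part each tool played, the strand setting and the scaling of libraries were not given in the sources used here. Read depth is unknown, so no counting interval can be given.

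The planned limma test needed 1 value per library, and could not be made. The size of each difference on log2(FPKM + 1) is given in its place. The genes, lists and limits were chosen with earlier results of these data known. Named genes are the 7 members, loci within 2 identifier steps, and fixed identifiers of sugar genes and leaf markers, named from general knowledge. Of 34129 identifiers, 0 matched the RefSeq gene table, so the planned lists defined by product words could not be formed and no coordinates are given. The calculation was tested on simulated data. Calculations used pandas 2.3.3 and numpy 2.4.6 under Python 3.11.15, with scipy 1.17.1 for ranks and matplotlib 3.10.9 for plots.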

Additional observations from a re-analysis of the deposited data

How the results depend on the processing

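The 6 invertase genes above 0 kept the sign of their stage difference in 30 of 30 values under 5 alternatives (pseudocounts of 0.1 and 0.5, equal sums, median-of-ratios scaling and quantile normalization). A pseudocount cannot change a sign. The scalings shifted the stages by less than the narrowest plain ratio among these genes, 1.74 for Sobic.006G160700. The kept signs are therefore no separate support. With a pseudocount of 0.1, the log2 difference was 5.62 for Sobic.003G440900, -1.99 for Sobic.004G004800 and 1.57 for Sobic.006G255400. With 0.5 it was 3.92 for Sobic.003G440900, and -1.30 for Sobic.004G004800, past 2-fold. As plain ratios, chosen after seeing the data, they were 6.93 for Sobic.003G440900, -2.32 for Sobic.004G004800 and 3.18 for Sobic.006G255400. Sobic.003G440900, Sobic.004G166700 and Sobic.006G255600 stayed past 2-fold under these alternatives. The log2 ratio of the summed vacuolar genes (-0.65) turned to 0.80 without Sobic.004G004800, and that of the summed cell wall genes (1.94) was 2.75 without Sobic.004G166700. Over all loci, equal sums raised the share of higher among loci at least 2-fold apart to 69.7%, against 51.8% as deposited. The counts of loci at least 2-fold apart stayed within 1.5 times those as deposited under the 5 alternatives above, a minimum of 5 FPKM, no minimum and loci with 1 identifier. A 4-fold limit, chosen after seeing the data, left 416 higher and 427 lower loci. No paired analysis was possible because the deposited columns carry no replicate number. For that reason the fits without each library were not run.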
